A study of Mus musculus with 6 samples.

Results

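The interferon-stimulated genes described here are 33 named mouse genes, measured in the liver of mice fed fractions of Boswellia serrata. Each gene was read from the probe sets whose only platform symbol was that gene, and the brightest of these stood for it. This gave a signal for 27 of the 33 members, through 34 probe sets, out of 12393 genes with such a probe set. Of the 27 members, 23 were bright enough to be tested, out of 9202 genes tested by the same rule. Ifit2, Mx1, Mx2 and Oasl2 were dimmer than the 40th percentile of signals on all 6 arrays and were not tested. Oas1g, Isg15, Ifi44, Ifi27, Tgtp1 and Xaf1 were not analysed here, since no probe set carried their symbol alone.

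Boswellia serrata is the tree that yields Indian frankincense. Total RNA from the liver of Swiss-Webster mice, an outbred stock, was hybridised to 6 Affymetrix expression arrays: 2 for mice on a control diet, 2 for mice given a hexane fraction (fraction 1) and 2 for mice given a methanol fraction (fraction 2). Each fraction was fed at 1% of the diet for 21 days. The labels name neither sex nor age, nor whether the 2 arrays of a group came from separate animals, so a p-value measures only the spread between these samples.

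Interferons are secreted signalling proteins. Type I and type II interferons bind separate receptors on the cell surface, and receptor-bound Janus kinases then phosphorylate STAT proteins. A complex that holds Stat2 and Irf9 binds a DNA element called ISRE, and a second element called GAS also lies upstream of some of the genes listed here. Their products sense and degrade viral RNA, block viral entry, replication and release, attack vacuoles that hold parasites and bacteria, and attract lymphocytes. In liver, hepatocytes as well as Kupffer, endothelial and stellate cells can respond to interferons.

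The promoters of the members carried the letters of these elements more often than those of other genes. RefSeq promoter windows on GRCm38.p6, from 250 bases before to 50 after the start site, were given for 26 of the 33 members and held 30 windows. An ISRE core, searched as GAAANNGAAA on both strands with overlapping matches allowed, was in 16 of the 30 member windows (53.3%) and in 3.44% of 32851 windows of all genes. A GAS core, searched as TTCNNNGAA, which reads the same on both strands, was in 8 member windows (26.7%) and in 8.3% of all windows. Stretches upstream of 6 of the genes whose values are given below are shown to set the cores beside the measurements. Each reads 5′ to 3′ along the gene's own strand. Capitals mark the ISRE cores in the first 5 stretches and the GAS core in that of Irf1, and a run of TTTC in capitals is an ISRE core on the opposite strand.
Oas1a: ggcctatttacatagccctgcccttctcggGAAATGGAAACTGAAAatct
Bst2: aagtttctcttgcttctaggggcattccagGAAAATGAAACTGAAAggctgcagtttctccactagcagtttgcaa
Ifit3: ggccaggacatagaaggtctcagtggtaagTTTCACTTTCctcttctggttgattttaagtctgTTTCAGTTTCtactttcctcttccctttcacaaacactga
Ifit1: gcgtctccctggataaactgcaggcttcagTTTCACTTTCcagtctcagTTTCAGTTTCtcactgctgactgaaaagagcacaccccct
Igtp: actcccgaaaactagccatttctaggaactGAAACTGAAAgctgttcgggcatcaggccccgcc
Irf1: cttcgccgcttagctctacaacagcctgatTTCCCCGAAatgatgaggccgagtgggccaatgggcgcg
The Oas1a stretch lies at chr5:120907526-120907575 on the minus strand and ends at the base before the start site, with overlapping ISRE cores from -20 to -11 and from -14 to -5 relative to the start. That of Bst2 (chr8:71537557-71537632, minus strand) has overlapping ISRE cores from -130 and from -124, and a GAS core from -136 to -128 overlaps the first of them. The stretches of Ifit3 (chr19:34583343-34583446) and Ifit1 (chr19:34640755-34640843), neighbours on the plus strand of chromosome 19, each have 2 separate ISRE cores. The Igtp stretch (chr11:58199492-58199555, plus strand) has a single ISRE core and, in lower case before it, a GAS core from -45 to -37; the Irf1 stretch (chr11:53769894-53769962, plus strand) has a GAS core and no ISRE core. A match is a run of letters and not a measured binding site. Among tested members with a window, the median log2 fold change of fraction 1 against control was -0.49 for the 13 with an ISRE core and -0.75 for the 6 without one (Cxcl9, Ifi35, Irf1, Irf7, Irf9 and Oasl1).

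The signals of most members were lowest in livers of mice fed fraction 1. Oas1a, whose product makes the activator of RNase L on binding double-stranded RNA, and Rtp4, an interferon-induced receptor transporter protein, fell against control, 4.74-fold and 2.37-fold on the log2(signal + 16) scale, and were the only members past an adjusted p of 0.05 in limma. On 20 of the 23 tested members both fraction 1 arrays read below both control arrays, and on none were both above. Over all tested probe sets, 22.1% had both fraction 1 arrays below both controls, and 0.346% were lower past the adjusted threshold. At an unadjusted p under 0.05, 11 members were lower and 0 higher, against 6.48% of all tested probe sets lower. The median log2 fold change was -0.56 over the tested members and -0.03 over all tested genes.

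Whether a dim gene is tested depends on the groups where it is bright, so the same counts were also taken on other sets of members. A set bright on every array leaves out members that are dim with fraction 1, so it too depends on the values compared. Of the 14 members above the 40th percentile on every array, 13 had both fraction 1 arrays below both controls, with a median log2 fold change of -0.51. Over all 27 members with a signal, 21 lay lower in this way, 1 (Mx2) lay higher and 5 overlapped. For neither set was a share over all probe sets chosen in the same way counted. Both fraction 1 arrays were below the percentile for 7 tested members (Cxcl10, Cxcl9, Gbp2, Gbp3, Ifit3, Irf9 and Oas1a). How far below differed: with fraction 1, Cxcl9 read 39.8 and 17.1, and Gbp2 80.8 and 104.8. The percentile was a signal of 100.9 on replicate a and 105.3 on replicate b.

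**Figure D1:**
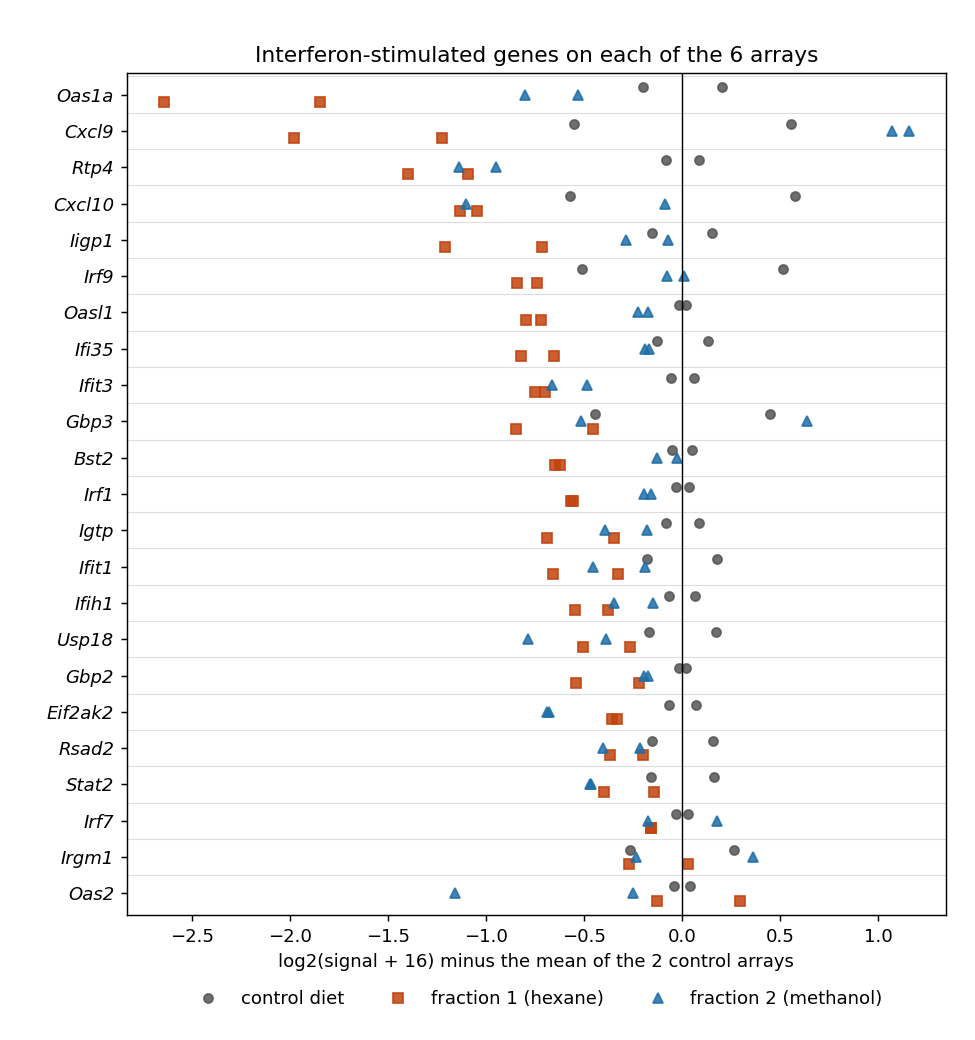
Each tested member on each array, as log2(signal + 16) minus the mean of the 2 control arrays, with circles for control, squares for fraction 1 and triangles for fraction 2. For 20 of the 23 genes both squares lie to the left of both circles, and Cxcl9 is the gene whose triangles both lie to the right of both circles.

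The counts by role given here and below divide the same 20 of 23 tested members, beside 22.1% of all tested probe sets. Genes that sense viral RNA or trigger its decay numbered 5 tested, and in 4 of them both fraction 1 arrays were below both controls. Oas1a gave signals of 273.2 and 366.5 on the control arrays, 76.5 and 37.2 with fraction 1, and 214.2 and 174.9 with fraction 2. Every fraction 1 value was below every fraction 2 value, and these were below both controls. In limma the log2 fold change of fraction 1 against control was -2.25 ± 0.33 (SE, 2 arrays per group; adjusted p = 0.0319). With its dim fraction 1 signals, the size was -2.54 with a pseudocount of 1 and -1.68 with 64. Oas1a belongs to a family of near-identical neighbouring copies, and whether its probe set also binds their transcripts was not tested.

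Oasl1, an Oas-like protein that limits translation of Irf7, read 300.7 and 293.3 on control, 164.2 and 174.1 with fraction 1, and 251.7 and 260.7 with fraction 2. The groups did not overlap, with fraction 1 lowest, and the log2 fold change of fraction 1 was -0.76 ± 0.20 (adjusted p = 0.163 in limma). Ifih1, the cytosolic sensor of long double-stranded RNA also known as MDA5, had the same order of groups and a log2 fold change of -0.46. Eif2ak2, the RNA-activated kinase PKR that stops translation, had a log2 fold change of -0.35, and -0.22 by its second probe set, whose groups overlapped. Oas2, a further oligoadenylate synthetase, stood apart from the others in this comparison. Its fraction 1 signals of 239.6 and 174.1 enclosed the control signals of 198.2 and 186.5, and its log2 fold change was 0.08 ± 0.34.

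All 6 tested genes of the other antiviral effectors had both fraction 1 arrays below both controls. Rtp4 read 513.7 and 454.1 on control, 217.8 and 173.3 with fraction 1, and 210.4 and 242 with fraction 2. Both fractions lay below both controls and overlapped each other. The log2 fold change of fraction 1 was -1.25 ± 0.22, with an adjusted p of 0.04998 in limma, at the edge of the threshold. A second Rtp4 probe set was dim on every array, from 18.3 to 33.7, and was not tested.

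Bst2, or tetherin, which holds budding virions on the cell surface, read 1443 and 1343.3 on control, 897.1 and 882.6 with fraction 1, and 1363.3 and 1269.2 with fraction 2. The fraction 1 arrays were low and nearly equal, while fraction 2 overlapped control. The log2 fold change of fraction 1 was -0.64 ± 0.17 (adjusted p = 0.159 in limma), with the smallest standard error among the members. Ifi35, an interferon-induced leucine zipper protein, read 506.4 and 421.4 on control, 287.7 and 254.4 with fraction 1, and 402.5 and 408.6 with fraction 2. Fraction 1 was below both other groups, with a log2 fold change of -0.74 ± 0.20 (adjusted p = 0.163).

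Ifit3 and Ifit1, tetratricopeptide proteins of which Ifit1 binds viral RNA lacking the host cap structure, had log2 fold changes of -0.73 and -0.49, neither past the adjusted threshold. Ifit3 read 159 and 173.4 on control, 92 and 96.1 with fraction 1, and 98.8 and 114 with fraction 2, so that both fractions were below control. Rsad2, or viperin, which makes a chain-terminating nucleotide, had a log2 fold change of -0.28 by its brightest probe set and 0.12 by a second, so its probe sets disagreed in sign.

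The 5 transcription factors and regulators all had negative log2 fold changes in fraction 1, and 4 had both arrays below both controls. Irf1, a factor induced by type II interferon through GAS, read 1109 and 1161.2 on control, 766.7 and 759.9 with fraction 1, and 1013.5 and 988.4 with fraction 2. Its groups did not overlap and its replicates were close, and the log2 fold change was -0.56 ± 0.17 (adjusted p = 0.214 in limma). Irf9, the DNA-binding subunit of the ISRE-binding complex, had a log2 fold change of -0.79 ± 0.40, with control arrays as far apart as 198.7 and 89.6, and ranged from -1.30 to -0.28 without any 1 array. Usp18, which removes Isg15 from proteins and dampens receptor signalling, had one of -0.39. Stat2, the partner of Irf9, had one of -0.27 with overlapping groups. A second Stat2 probe set, not tested, read 101.7 and 70 on control, 29.3 and 44 with fraction 1, and 73 and 43.7 with fraction 2. Irf7, which drives type I interferon genes, had one of -0.16 and fraction 1 signals of 332.2 and 331.4 against 380.9 and 364.2 on control.

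Among the interferon-inducible GTPases, which act on membranes of vacuoles that hold pathogens, 4 of 5 tested genes had both fraction 1 arrays below both controls. Iigp1 read 2183.2 and 1763 on control, 1189.4 and 839.7 with fraction 1, and 1865.5 and 1603.9 with fraction 2. By this probe set fraction 1 was below both other groups, which overlapped, and the log2 fold change was -0.96 ± 0.22 (adjusted p = 0.1102 in limma). A second Iigp1 probe set gave -0.95, with an adjusted p of 0.0923. Igtp had a log2 fold change of -0.52, Gbp3 of -0.65 and Gbp2 of -0.38, none past the adjusted threshold. A second Gbp2 probe set, not tested, did not share its order, with 50.4 and 88.1 on control and 123.6 and 26 with fraction 1. Gbp3 had the largest standard error among the members, 0.51, and ranged from -1.10 to -0.21 without any 1 array. Irgm1, a regulator of the other GTPases, had one of -0.12 with overlapping groups.

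Both tested chemokines attract T cells through the receptor Cxcr3. Cxcl9 read 176 and 72.9 on control, 39.8 and 17.1 with fraction 1, and 258.1 and 274.6 with fraction 2. The fraction 1 arrays were both below and the fraction 2 arrays both above the controls, which differed widely from each other. The log2 fold change of fraction 1 against control was -1.60 ± 0.46 (adjusted p = 0.192 in limma). Cxcl10 read 99.2 and 238.8 on control and 62 and 67 with fraction 1, with a log2 fold change of -1.09 ± 0.50 (adjusted p = 0.431). Without any 1 array it ranged from -1.66 to -0.52, and that of Cxcl9 from -2.16 to -1.05.

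**Figure D2:**
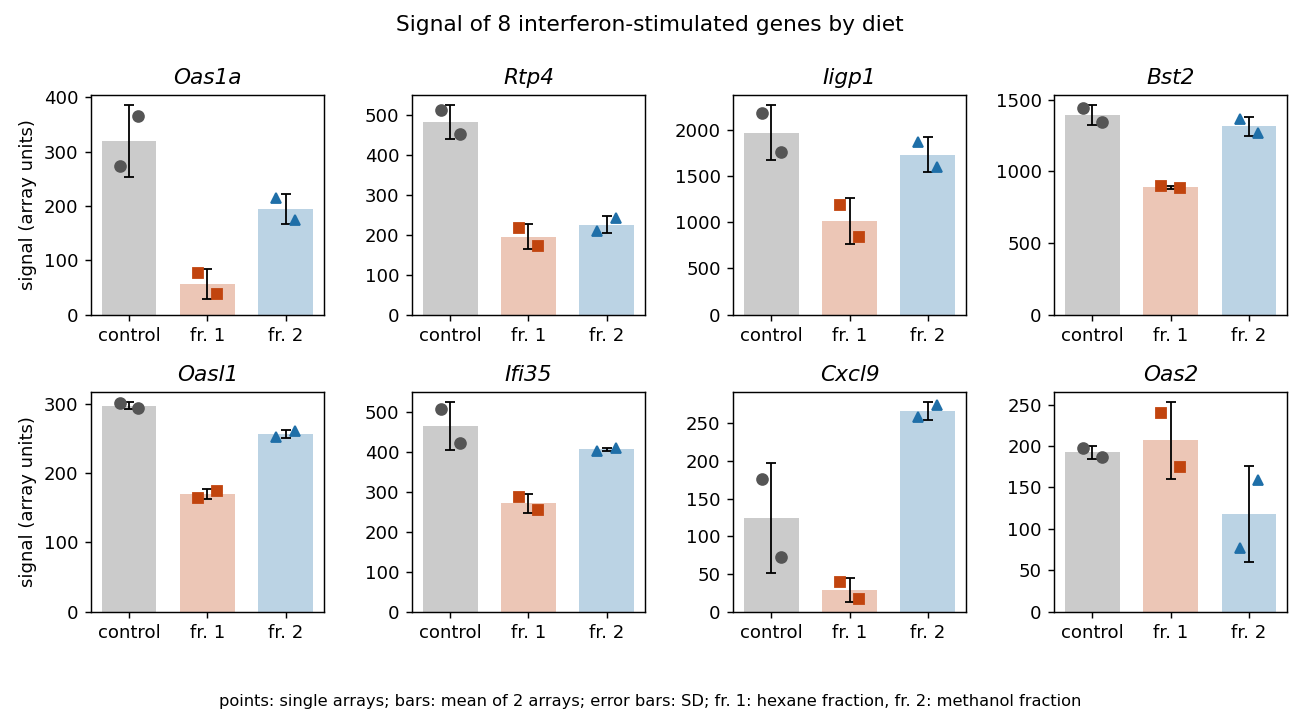
Deposited signal of 8 members by diet, with points for single arrays, bars for the mean of 2 arrays and error bars for the SD. Rtp4 is low in both fractions, Iigp1, Bst2, Oasl1 and Ifi35 are lowest in fraction 1, and Cxcl9 is low in fraction 1 and high in fraction 2.

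The calls of Oas1a and Rtp4 depended on single arrays. Without control replicate 2 the adjusted p of Oas1a in limma was 0.086, without fraction 1 replicate b 0.187, without fraction 2 replicate a 0.07004, and without fraction 2 replicate b 0.0683; that of Rtp4 was from 0.0778 to 0.420 without any 1 of the 6 arrays. The log2 fold changes without each array in turn ranged from -2.64 to -1.85 for Oas1a and from -1.40 to -1.09 for Rtp4.

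Arrays were scanned in 2 batches, and batch 2 held control replicate 1 and fraction 2 replicate a. With scan batch as a block, the adjusted p in limma was 0.0478 for Oas1a and 0.0603 for Rtp4. The arrays came from 3 chip lots, with control replicate 2 and fraction 1 replicate a in lot 1, batch 2 in lot 2 and both b replicates in lot 3. With chip lot as a block, the adjusted p was 0.0436 for Oas1a and 0.104 for Rtp4. Within batch 1, where control replicate 2 is the only control, 22 of 23 members had a negative log2 fold change of fraction 1 against control, with a median of -0.59. That control array had an actin 3′ to 5′ signal ratio, a sign of RNA quality, of 3.87, against 2.13 to 2.64 on the other 5. The 2 control arrays themselves differed by a median of 0.26 on the log2 scale over the members, in either direction.

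In livers of mice fed fraction 2, no member passed the adjusted threshold in limma against the same control arrays. At an unadjusted p under 0.05, 2 members were lower (Rtp4 and Eif2ak2) and 1 was higher (Cxcl9), against 3.56% of all tested probe sets lower. In either direction 0.108% of all tested probe sets passed the adjusted threshold. Both fraction 2 arrays were below both controls for 15 of 23 tested members, against 20.4% of all tested probe sets. They were so for 10 of the 14 members above the 40th percentile on every array, for which no share over all probe sets was counted. The median log2 fold change was -0.25 over the tested members and -0.05 over all tested genes, and with each array centred on its median it was -0.13, a centring that moved the median of all tested probe sets by 0.12.

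Rtp4 had a log2 fold change of -1.05 ± 0.22 in fraction 2 (unadjusted p = 0.00113, adjusted p = 0.347 in limma), with the 4 arrays of both fractions between 173.3 and 242. Eif2ak2 read 192.9 and 174.3 on control, 142 and 139.3 with fraction 1, and 108.2 and 107.6 with fraction 2. Fraction 2 was the lowest group without overlap, with a log2 fold change of -0.69 ± 0.26 (adjusted p = 0.671). Its second probe set did not share this order: it read 94 and 152.2 on control and 105.1 and 114.7 with fraction 2, with a log2 fold change of -0.11.

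Cxcl9 had a log2 fold change of 1.11 ± 0.46 in fraction 2 (adjusted p = 0.703 in limma), which was 0.56 without control replicate 2 and 1.67 without control replicate 1. Cxcl10 did not share that direction: its fraction 2 signals of 63.8 and 145.3 overlapped the controls. Oas1a had a log2 fold change of -0.67, Usp18 of -0.59, Ifit3 of -0.58 and Stat2 of -0.47, each with both fraction 2 arrays below both controls and none past the threshold. Oas2 read 77.2 and 159.1 with fraction 2, both below control, and its log2 fold change of -0.71 ± 0.34 was -0.25 without fraction 2 replicate a. Among the GTPases, Irgm1 and Gbp3 had log2 fold changes of 0.06 each, while Iigp1 had -0.18 and Igtp -0.29. The second Iigp1 probe set gave -0.40 in fraction 2, with signals of 818.2 and 999.7 below both controls at 1148.7 and 1257.6. Irf7 was level with control at 0.00, with a standard error of 0.21.

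The summed signal of the hepatocyte markers with fraction 2 was 77.3% of control, from 112291.1 to 119427.3 against 140421.3 to 159274.2. Of the 8 markers, 5 were lower at an unadjusted p under 0.05 in limma, against 3.92% of all tested genes. None of the markers passed the adjusted threshold. Their part in the fraction 2 values was not tested.

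Compared with each other, the fractions differed in no member past the adjusted threshold in limma, which 0.0136% of all tested probe sets passed in either direction. At an unadjusted p under 0.05, 6 members were lower with fraction 1 than with fraction 2 and 1 was higher, against 4.18% of all tested probe sets lower. Both fraction 1 arrays were below both fraction 2 arrays for 11 of 23 tested members, against 21.4% of all tested probe sets. They were above for 3 of the 23, against 2388 of 9202 tested genes. The median log2 difference was -0.21 over the tested members and 0.02 over all tested genes.

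Cxcl9 had the largest difference among the members, -2.72 ± 0.46 (unadjusted p = 3.16e-04, adjusted p = 0.1996 in limma). Its fraction 1 signals were dim, so the size depends on the pseudocount: it was -3.30 with 1 and -1.85 with 64 in place of 16. Oas1a followed with -1.58 ± 0.33 (adjusted p = 0.267). Iigp1, Bst2, Ifi35 and Oasl1 had log2 differences of -0.78, -0.56, -0.56 and -0.56, with adjusted p-values from 0.436 to 0.555. Oas2 was the member higher with fraction 1, by 0.79 ± 0.34 (unadjusted p = 0.0481, adjusted p = 0.616). Eif2ak2 and Stat2 also had both fraction 1 arrays above both fraction 2 arrays, by 0.34 and 0.20. The second Eif2ak2 probe set ran the other way, with both fraction 1 arrays below both fraction 2 arrays and a log2 difference of -0.10. For Rtp4 the difference was -0.20 ± 0.22, with overlapping groups.

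Across the 3 groups the members, each by its brightest probe set, fell into several orders. For 7 tested members (Gbp2, Ifi35, Ifih1, Ifit3, Irf1, Oas1a and Oasl1) every control array was above every fraction 2 array, and these above every fraction 1 array, an order that 3.22% of all tested probe sets had. For 13 members every array of both fractions was below both controls, against 10.2% of all tested probe sets. For 11, among them Bst2, Iigp1, Irf9 and Cxcl9, fraction 1 was below both other groups, against 11.3%. By array, the median deviation of the tested members from their own mean was 0.29 and 0.28 on the controls, -0.31 and -0.39 with fraction 1, and 0.01 and 0.05 with fraction 2. Fraction 1 replicates a and b held the lowest value of 7 and 10 members, and control replicates 1 and 2 the highest of 9 members each.

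**Figure D3:**
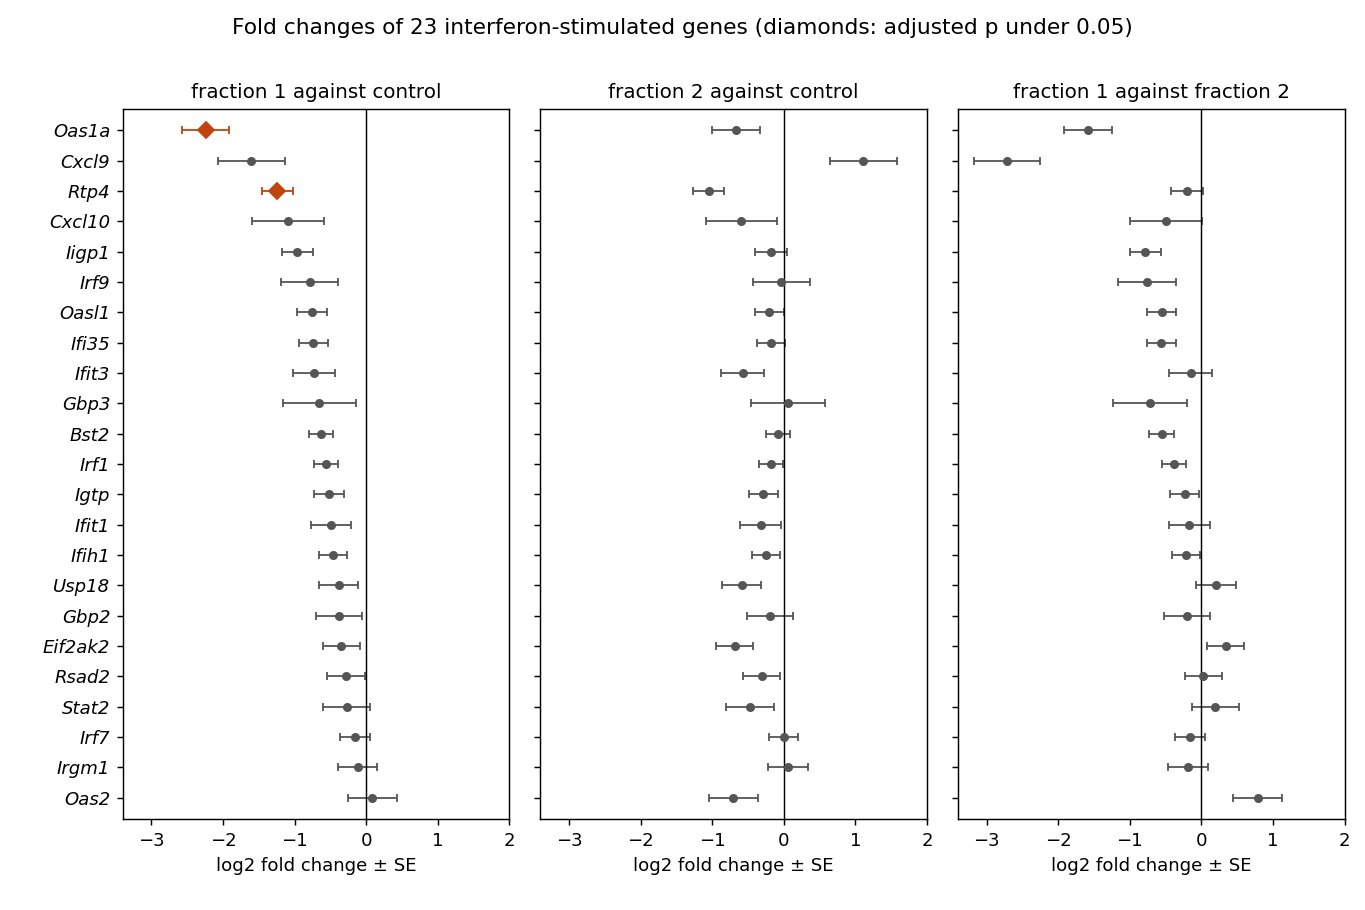
Log2 fold change with its SE for the 23 tested members in the 3 comparisons, ordered by fraction 1 against control, with diamonds for an adjusted p under 0.05. In the left panel all genes but Oas2 lie below 0 and Oas1a and Rtp4 are diamonds, and Cxcl9 lies below 0 in the left panel and above 0 in the middle one.

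Other genes of the interferon pathway were read in the same way, and none passed the adjusted threshold in limma in any of the 3 comparisons. At an unadjusted p under 0.05 in fraction 1 against control, 4 of 34 tested other interferon-stimulated genes were lower (11.8%) and 1 was higher. Of all tested genes, 7.16% were lower at that p. The median log2 fold change of the 34 was -0.11, and 11 of them had both fraction 1 arrays below both controls (32.4%). That share was 23.3% over all tested genes and 87.0% over the members. Both lists were chosen with earlier results of these data known. Gbp6 had a log2 fold change of -1.14 ± 0.34, Gbp7 of -0.87 ± 0.31 and Parp14 of -0.78 ± 0.23, while Lgals3bp had 0.52 ± 0.17.

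The 13 tested genes of the receptors and signalling steps had a median log2 fold change of -0.05 in fraction 1. The chains of the type I receptor lay on opposite sides of control: Ifnar1 had -0.50 ± 0.21 and Ifnar2 0.55 ± 0.20. Ifnar2 also had 0.60 ± 0.20 in fraction 2. Of the kinases, Jak1 had -0.40 and Tyk2 -0.30 in fraction 1, and the type II receptor chain Ifngr1 had 0.10. Irf8, a factor of myeloid cells, had -0.46 in both fractions.

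Among the 3 tested interferon ligands, Ifna1 read 214.2 and 23.6 on control, 19.8 and 18.2 with fraction 1, and 87.9 and 112.2 with fraction 2. The control arrays disagreed, so its log2 fold change of -1.45 had a standard error of 0.82. Ifna2 and Ifnb1 had log2 fold changes of -0.34 and -0.10 with overlapping groups. The 6 tested nucleic acid sensors and adaptors had a median log2 fold change of 0.08 in fraction 1, with Dhx58 at 0.30. Tlr9 had -0.94 ± 0.57, but it reached the 40th percentile on the 2 control arrays alone, so that it was tested only because it was brighter there. Of the 7 tested inhibitors of interferon signalling, Ptpn2, a phosphatase acting on Janus kinases, had 0.54 ± 0.23. Cish, a SOCS-family protein, had -0.57 in fraction 1 and -0.94 in fraction 2. Socs3, a further inhibitor, named here after its values were seen, read 197.4 and 213.4 on control, 208.3 and 196 with fraction 1, and 106.4 and 37 with fraction 2. Its log2 fold change was -0.02 in fraction 1 and -1.46 ± 0.39 in fraction 2 (adjusted p = 0.512 in limma).

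Markers of liver cell types were measured in the same arrays. Albumin, the main secreted product of hepatocytes, read from 18755 to 27250.4, and all 8 hepatocyte markers were tested. The summed signal of the 27 members was 62.9% of control in fraction 1 (6300.8 to 6979.6 against 10363.7 to 10759.8) and 85.0% in fraction 2. For the stellate cell markers the sum was 63.9% of control in fraction 1 (4508.6 to 5587.4 against 7284.8 to 8511.6) and 84.9% in fraction 2. Of their 6 tested genes, 4 had both fraction 1 arrays below both controls, against 23.3% of all tested genes. Reln had a log2 fold change of -1.10 ± 0.20 (adjusted p = 0.0524 in limma), while Col1a1 lay above 0 at 0.14. Reln made up a large part of the sum, with 2531.4 and 2963.1 on control and 1467.6 and 1092.1 with fraction 1. The defining marker Lrat was below the 40th percentile on every array. Endothelial markers summed to 71.1% of control in fraction 1 (4159 to 4447.7 against 5219.6 to 6888.4), with 3 of 7 below control on both arrays. Stab2 was at -0.92 ± 0.19 (adjusted p = 0.0858 in limma), while Cdh5 and Lyve1 lay above 0 at 0.12 and 0.02.

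Kupffer cell and macrophage markers summed to 87.0% of control in fraction 1 (8575.8 to 9300.7 against 9762.8 to 10778.1). Of these markers, 4 of 11 were below control on both arrays, against 23.3% of all tested genes. Hepatocyte markers summed to 87.3%, T cell and NK cell markers to 98.0% and B cell markers to 93.2%. Sums above control were those of neutrophil markers at 103%, dendritic cell markers at 112% and cholangiocyte markers at 118%. On single arrays these sums overlapped control, as did those of T and NK cell and of B cell markers. Dendritic cell sums were 393.7 to 435 with fraction 1 against 225 to 515 on control. Cholangiocyte sums were 184 to 357.1 against 211 to 246.3, and neutrophil sums 938.6 to 1028.9 against 791.9 to 1118. Below the 40th percentile on every array were 3 of 7 neutrophil, 1 of 4 dendritic and 2 of 4 cholangiocyte markers. No marker of these lists passed the adjusted threshold in fraction 1. The part of these cell types in the values of the interferon-stimulated genes was not tested, and in whole tissue fewer cells of a type and less RNA per cell cannot be told apart.

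**Figure D4:**
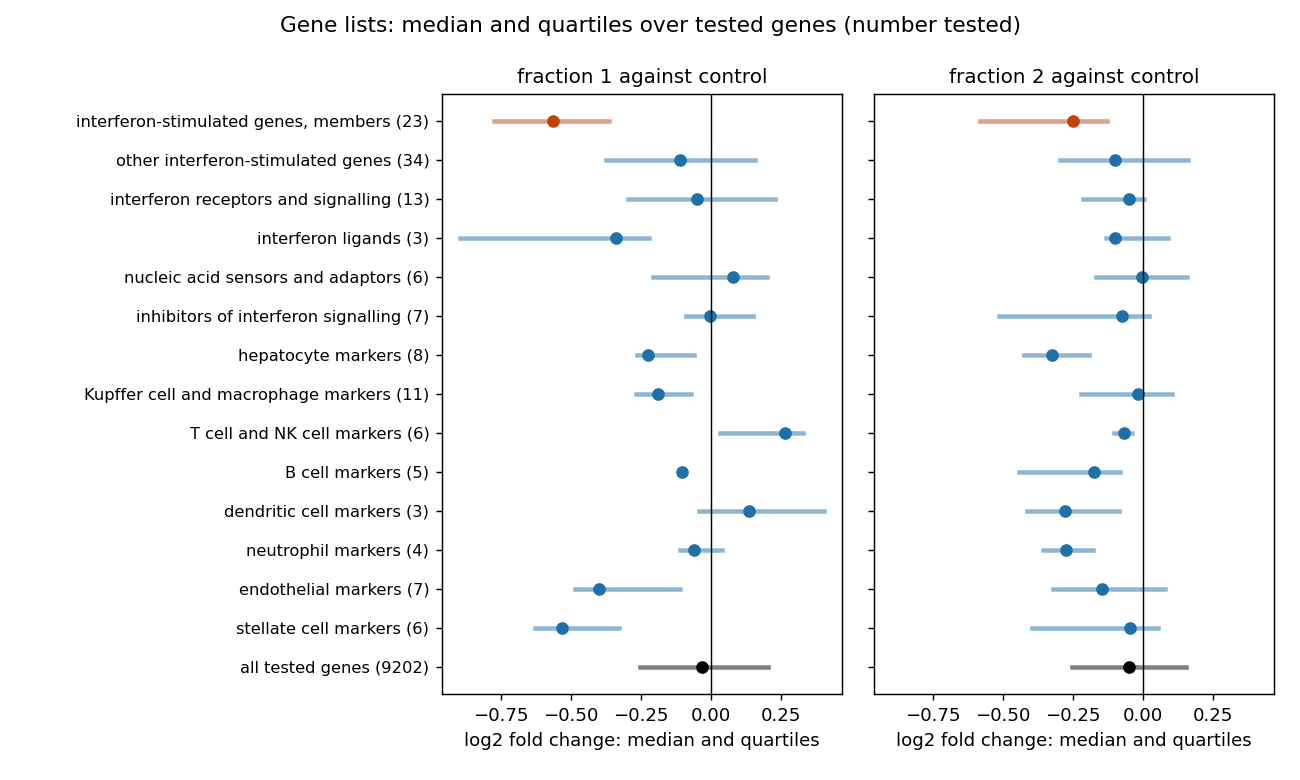
Median and quartiles of the log2 fold change over the tested genes of each list, for both fractions against the shared control arrays, with the number tested in brackets. The interferon-stimulated genes lie at -0.56 in fraction 1 and -0.25 in fraction 2, the stellate cell markers at -0.53 and -0.05, and all tested genes at -0.03 and -0.05.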

How the data were processed

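Liver RNA of 6 mouse samples was measured on Affymetrix expression arrays and grouped by the sample titles. The authors deposited 1 linear signal intensity per probe set and array; the software behind it is not given in the sources used here. Trimmed by 2% at each end, the array means agreed within 0.00589%, and the values were not rescaled. Scan batch and chip lot were read from the headers of the authors' experiment files. The table held 22690 probe sets; 64 controls were dropped, and of the rest 20380 had 1 symbol in the platform annotation, 691 several and 1555 none.

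Values were taken as log2(signal + 16), which understates fold changes of dim genes. Tests covered the 14755 probe sets that reached the 40th percentile of the array on 2 or more of the 6 arrays. A single limma model (version 3.58.1 in R 4.3.3, lmFit and trended eBayes) over all 6 arrays gave the 3 comparisons, two-sided, with Benjamini-Hochberg adjusted p under 0.05 as the threshold. Precision is limited by the number of arrays (median standard error 0.25). Both fractions share the control arrays. The fit was tested on simulated data. Members past the threshold, then those of smallest p up to 8 per comparison, are described in full; the other interferon genes named are chosen receptor and signalling genes, of which 1 is not reported here, and up to 4 per list of smallest p in fraction 1 against control. The members and lists were chosen with earlier results of these data known. Motif searches and figures used Python 3.11.15 and matplotlib 3.10.9.

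Alternatives changed the normalization (quantile, median centring), the pseudocount (1, 64), the filter (none, 60th percentile), the variance trend (none), the block (scan batch, chip lot, replicate letters), the arrays fitted (batch 1, the groups compared, each array left out) and the probe sets of a gene (their mean).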

Additional observations from a re-analysis of the deposited data

Results flagged for a closer look

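The log2 fold change of Cxcl9 between fraction 1 and fraction 2 was -2.72, with both fraction 1 arrays below both controls and both fraction 2 arrays above them. The difference between the fractions had an adjusted p of 0.1996 in limma. It ranged from -3.30 to -1.85 over 18 alternatives and stayed below 0 in each, with adjusted p-values from 0.0372, with the replicate letters as a block, to 0.877. Both fraction 1 signals, 39.8 and 17.1, were dim, under the 40th percentiles of their arrays, 100.9 and 105.3. Cxcl9 reached that percentile on both fraction 2 arrays and on 1 control array. It would therefore not have been tested without the fraction 2 arrays, where it was brightest.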

How the results depend on the processing

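Signs were compared over the alternatives that kept the brightest probe set of each gene, so the mean of probe sets is not among them. In every such alternative the sign of the log2 fold change was the same for 21 of 23 members in fraction 1 against control (Irgm1 and Oas2 were the exceptions). One of the 21, Rsad2, had 0.12 by its second tested probe set. The sign was the same for 18 in fraction 2 against control (not for Bst2, Gbp3, Irf7, Irf9 and Irgm1) and for 19 between the fractions (not for Cxcl10, Irf7, Irgm1 and Rsad2). Of the members past the adjusted threshold in fraction 1 against control, 2 as reported, Oas1a alone was left, 1 member, with quantile normalization, median centring, a pseudocount of 1, scan batch as a block or chip lot as a block. There were 0 unfiltered, with the 60th percentile filter, without a variance trend, in batch 1 alone or with only the groups compared, and 0 to 1 without any 1 array. Oas1a passed in 8 of 17 alternatives, with adjusted p-values from 0.0291 to 0.187, and Rtp4 in 1 of 17, the pseudocount of 64, from 0.0471 to 0.420. The median log2 fold change of the members was -0.69 in fraction 1 against control with the 60th percentile filter, which left 12 members, and -0.13 in fraction 2 against control with median centring. Between the fractions it was -0.47 with the 60th percentile filter, -0.32 with scan batch as a block, -0.39 with chip lot as a block, and from -0.35 to -0.21 without any 1 array. Over all probe sets, 105 passed in fraction 1 against control, of which 51 were lower. The count was 48 with median centring, 27 with no filter, 12 with no variance trend, 66 in batch 1 alone, 39 with only the groups compared, and 14 to 149 without any 1 array. For fraction 2 against control, 16 became 10 with no filter, 2 with no variance trend, 10 with chip lot as a block, 4 in batch 1 alone, 9 with only the groups compared, and 3 to 28 without any 1 array. Between the fractions, 2 became 0 with quantile normalization, median centring, a pseudocount of 1, no filter, no trend, the scan batch block or batch 1 alone, 16 with chip lot as a block, and 0 to 11 without any 1 array. The labels do not say whether the letters a and b of the fractions pair the samples. Deviations of the replicates had a correlation of 0.03 between the fractions. This cannot decide it, since the a replicates differed in scan batch and chip lot. With the letters as a replicate block 75 probe sets passed between the fractions, and 1 member, Cxcl9. The cause of these changes was not tested. With 1 array left out, its group's lone array is assumed to vary like the others. With 2 arrays per group, a difference that misses the threshold does not show that groups were alike.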
